A study of Mus musculus with 9 samples.

Results

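The Slc2a family encodes the facilitative sugar transporters of the cell membrane, and this account covers 10 of its genes (Slc2a1, Slc2a2, Slc2a3, Slc2a4, Slc2a6, Slc2a8, Slc2a9, Slc2a10, Slc2a12 and Slc2a13) of the 28932 genes in the deposited mouse RNA-seq tables. They were chosen by gene symbol, as relatives of Slc2a6, which itself was singled out because its reads were higher after FICZ in these libraries, so its values are described here with no test. Each gene was read from its transcript with the highest mean read count over the 9 libraries. The cells were labelled as mouse hepatoma, with the source given as Hepa 1 WT and the cell line as HC1C. They received 10 nM FICZ (6-formylindolo[3,2-b]carbazole, formed from tryptophan by light and a high-affinity ligand of the aryl hydrocarbon receptor, AhR), 50 uM tryptamine (an amine made from tryptophan) or no ligand, for 6 h, with 3 libraries in each of the 3 groups. The controls are labelled as untreated while the treatment notes name a vehicle. The 2 agents were given at different doses, so FICZ and tryptamine values are a comparison of these doses only. The study's title places tryptamine in AhR-driven transcription and asks about the part of monoamine oxidases. No label says whether the libraries of a group came from separate cultures, so p-values measure the spread between these libraries, which may be technical.

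Facilitative sugar transporters move hexoses down their concentration gradient, without coupling to sodium. Slc2a1 serves basal glucose uptake in most proliferating cells and cell lines, Slc2a2 is the high-capacity glucose transporter of hepatocytes, Slc2a3 is a high-affinity form best known from neurons, and Slc2a4 is the insulin-regulated form of fat and muscle. Slc2a6 is a lysosomal member described in mouse macrophages, Slc2a8 also sits mainly on internal membranes, Slc2a9 carries urate, and Slc2a13 carries myo-inositol together with protons. AhR is a ligand-activated transcription factor that binds DNA with its partner ARNT at a short core motif, and Cyp1a1, a cytochrome P450, is its best-known target gene.

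Promoter sequences of RefSeq (GRCm38.p6) were available for 8 of the 10 genes, each from 250 bases before to 50 bases after the annotated start. They were searched for the AhR core motif GCGTG on both strands, where it reads CACGC on the other strand, and for the longer TNGCGTG, every match of which also holds a GCGTG match. The 2 shown are those of Slc2a6, the member that stood out with FICZ, and of Slc2a1, the most abundant member, on the gene's strand with GCGTG or CACGC in capitals. The Slc2a6 window lies at chr2:27027949-27028248 (minus strand) and the Slc2a1 window at chr4:119108495-119108794 (plus strand).
Slc2a6: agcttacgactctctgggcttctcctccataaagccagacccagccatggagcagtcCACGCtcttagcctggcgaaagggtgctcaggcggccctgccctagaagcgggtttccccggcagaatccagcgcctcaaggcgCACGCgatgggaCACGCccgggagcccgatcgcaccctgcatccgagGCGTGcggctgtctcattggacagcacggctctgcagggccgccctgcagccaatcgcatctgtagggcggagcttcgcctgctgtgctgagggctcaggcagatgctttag
Slc2a1: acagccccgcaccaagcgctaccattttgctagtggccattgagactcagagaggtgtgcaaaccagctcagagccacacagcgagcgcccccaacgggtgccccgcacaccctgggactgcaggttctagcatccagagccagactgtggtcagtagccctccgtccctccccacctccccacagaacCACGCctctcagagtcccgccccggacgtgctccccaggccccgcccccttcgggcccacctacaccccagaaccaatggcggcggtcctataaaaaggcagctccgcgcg
The Slc2a6 window held 4 matches, whose first bases lie 193, 109, 97 and 62 bases upstream of the start, and the match at 109 is also a TNGCGTG. Slc2a1 held 1 match, 61 bases upstream, and Slc2a8 held 1, 173 bases upstream. The other 5 windows held none. Of all 32851 RefSeq windows of this length, 32.4% held at least 1 GCGTG, 1.33% held at least 4, and 5.07% held a TNGCGTG. Among the 2573 windows within 2 percentage points of the 64.7% GC content of the Slc2a6 window, 3.77% held at least 4 GCGTG and 8.74% a TNGCGTG. These matches describe letters in a window, and no binding was measured here.

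The libraries held between 11594795 and 16715843 reads on the transcripts used, and 12374 genes passed the filter on low counts. Cyp1a1 averaged 1003 ± 45.2 CPM (reads scaled to a common effective library size) with FICZ, 703.2 ± 44.0 with tryptamine and 59.2 ± 4.31 in controls (SD, n = 3 each). Control replicate 3 stood apart: its log CPM correlated with the other 8 libraries at 0.954 to 0.960, while the lowest correlation among those 8 was 0.987. Relative to controls 1 and 2 it ran 0.61 higher on the log2 scale (median) over 1132 genes with transcripts of up to 1000 nt and 0.83 lower over 1334 genes with transcripts above 6000 nt. Several results are therefore given with and without it. Of 8 hepatocyte markers, Trf, Alb and Afp were read at 57724, 29668 and 17236 reads over the 9 libraries, while Ttr, Apoa1 and Hnf4a had 0 reads, so the tables show some but not all defining hepatocyte transcripts. The summed level of the 8 markers was 772.1 to 793.6 CPM with FICZ, 759.0 to 784.2 with tryptamine and 786.0 to 988.4 in controls, or 786.0 to 874.5 without control replicate 3. Of 4 fibroblast markers, Col1a1, Dcn and Pdgfrb had 154952, 44729 and 5902 reads over the 9 libraries, while Col1a2 had 11. They summed to 1540 to 1664 CPM with FICZ, 1546 to 1694 with tryptamine and 1337 to 1623 in controls. Without control replicate 3 this control range was 1606 to 1623 CPM. The log2 differences of FICZ against control were -0.50 ± 0.19 for Afp, -0.26 ± 0.10 for Alb, 0.20 ± 0.12 for Col1a1 and -0.31 ± 0.09 for Dcn, none of which passed. With control replicate 3 left out they were -0.20 ± 0.09, -0.20 ± 0.07, 0.07 ± 0.06 and -0.24 ± 0.06 for the same genes, and none passed. The part of these levels in the results was not tested.

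Slc2a6 (gene ID 227659) had 98, 107 and 75 reads with FICZ, 26, 5 and 14 with tryptamine and 11, 7 and 2 in controls. The lowest FICZ library stood above every tryptamine and control library, while tryptamine and control libraries overlapped. In levels these counts were 6.16 ± 0.942 CPM with FICZ, 1.02 ± 0.698 with tryptamine and 0.465 ± 0.287 in controls (SD, n = 3 each). FICZ was 13.2-fold control, tryptamine 2.19-fold control and FICZ 6.04-fold tryptamine as ratios of mean CPM. The fitted log2 differences were 3.65 ± 0.51 for FICZ against control, 1.09 ± 0.58 for tryptamine against control and 2.57 ± 0.45 for FICZ against tryptamine (SE). In bulk RNA, more cells with the transcript and more transcript per cell cannot be told apart. Without control replicate 3, the differences were 3.31 ± 0.44 for FICZ against control, 0.74 ± 0.53 for tryptamine against control and 2.57 ± 0.35 for FICZ against tryptamine. The tryptamine difference depended most on single libraries: it was 0.45 without tryptamine replicate 1, which holds 26 of the group's 45 reads, and 1.58 without control replicate 1. Leaving out single libraries gave 3.31 to 4.15 for FICZ against control, the highest without control replicate 1, and 2.20 to 3.21 for FICZ against tryptamine, the lowest without tryptamine replicate 2 and the highest without tryptamine replicate 1.

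**Figure D1:**
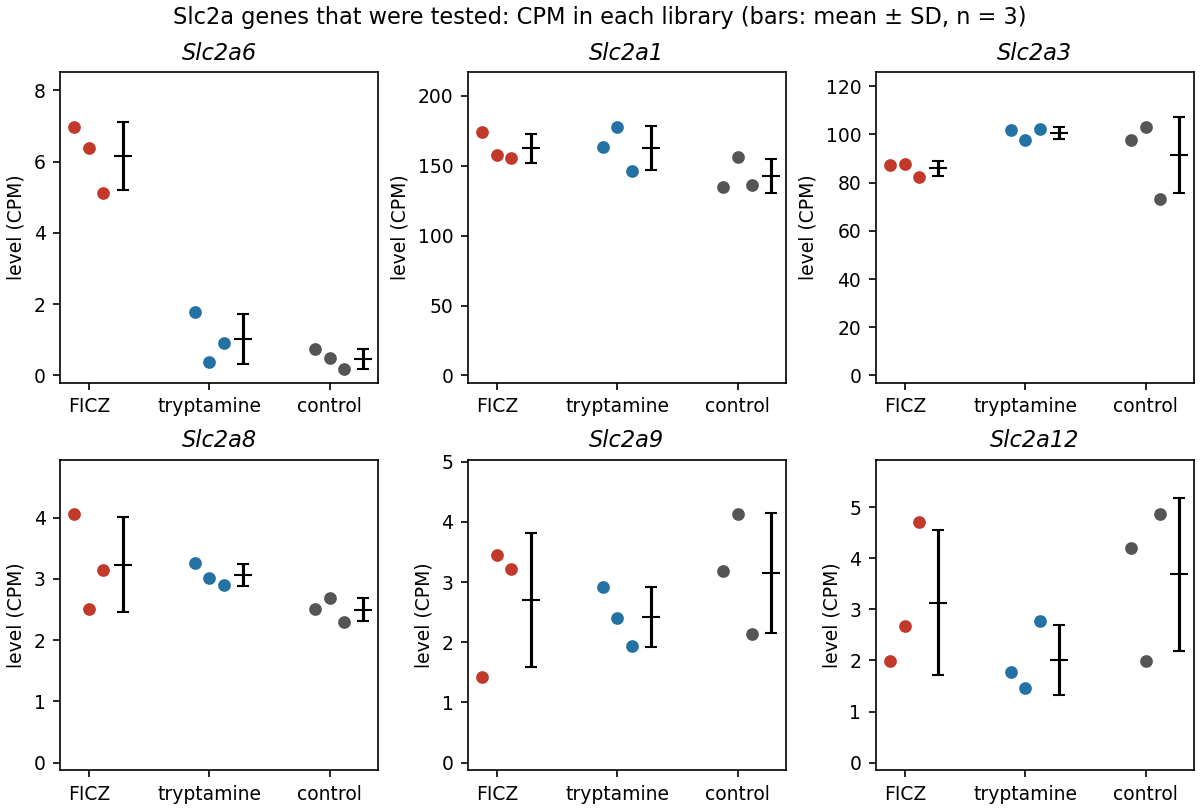
Level in CPM (y axis, linear) of the 6 tested genes in each FICZ, tryptamine and control library (points), with the mean ± SD of 3 libraries beside them. Slc2a6 is the gene whose FICZ libraries (6.16 ± 0.942 CPM) lie far above both other groups, while the other 5 genes overlap between FICZ and control.

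The Slc2a6 reads were not confined to a single transcript entry. The tables list 12 transcripts for the gene, which overlap and share reads, so they are not independent measurements. On the 7 with at least 10 reads in both groups, FICZ was 12.2 to 13.7 times control and tryptamine 1.94 to 2.25 times control. On the 10 with at least 10 reads in both treated groups, FICZ was 5.86 to 8.35 times tryptamine. The 669-nt transcript had an uneven pattern within the FICZ group, with 49, 16 and 13 reads, against 4, 0 and 4 with tryptamine and 0, 1 and 0 in controls. FICZ replicate 1 thus held most of the reads on that short transcript. On the 2351-nt transcript used here its count, 98, lay between those of the other FICZ libraries. Its level there was the highest of the group, at 6.97 CPM against 6.37 and 5.13 CPM. In the authors' deposited table of genes higher with FICZ, 81 genes in all, Slc2a6 was listed with 11 of its 12 transcripts and a mean log2 difference of 4.07, and their list for tryptamine, 22 genes, holds no Slc2a member. Both lists come from these same libraries, so they are not independent of the counts above.

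**Figure D2:**
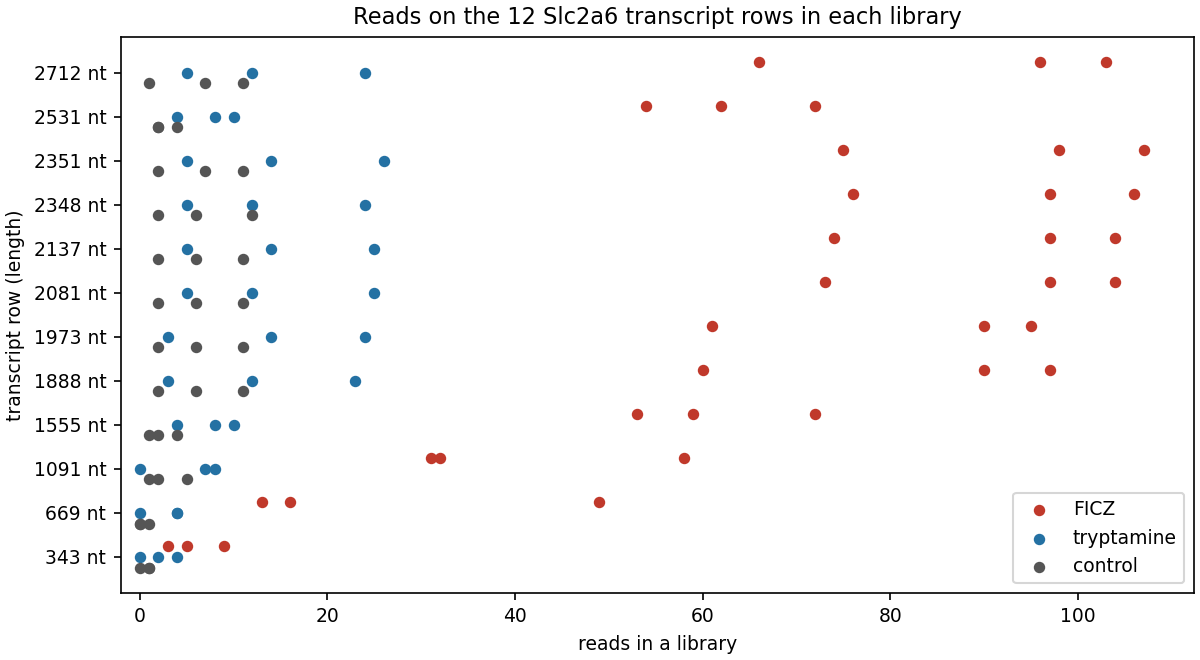
Reads per library (x axis) on each of the 12 Slc2a6 transcripts, labelled by length in nt (y axis), with 1 point per library and colours for FICZ, tryptamine and control. FICZ libraries lie to the right on the longer transcripts, and on the 669-nt transcript FICZ replicate 1, at 49 reads, stands away from the other 2.

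Macrophage and blood markers were examined beside Slc2a6 because that gene is known from macrophages. Their summed level over 6 markers was 66.1 to 68.2 CPM with FICZ, 69.4 to 70.5 with tryptamine and 62.8 to 93.4 in controls, or 62.8 to 69.3 in controls 1 and 2 without control replicate 3, so the FICZ libraries lay within the range of the controls either way. Emr1, which encodes the F4/80 antigen, had 0 reads and Ptprc, the common leukocyte antigen, 17 reads over the 9 libraries, while Csf1r had 6808 and Lyz2 1678. Of the 6 macrophage and blood markers 4 were tested and 0 passed in any comparison in edgeR's quasi-likelihood test, with log2 differences for FICZ against control of -0.21 ± 0.15 for Csf1r and 0.67 ± 0.57 for Itgam. With that control left out these were 0.0040 ± 0.09 for Csf1r and 0.57 ± 0.63 for Itgam, 0 of the 4 passed in any comparison, and 4 of 4 rather than 2 of 4 had a positive difference for FICZ against control (median 0.07 rather than -0.02).

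Slc2a1 and Slc2a3 were the 2 abundant members. Slc2a1 (gene ID 20525) was measured at 174.4, 157.7 and 155.4 CPM with FICZ, 163.3, 177.7 and 146.2 with tryptamine and 134.6, 156.4 and 136.5 in controls. Both treated groups averaged above the controls, but 1 control library lay within each treated range. The log2 difference was 0.19 ± 0.11 for FICZ against control (SE; 95% interval -0.05 to 0.43; adjusted p = 0.605, edgeR's quasi-likelihood test with Benjamini-Hochberg adjustment over all genes) and 0.19 ± 0.11 for tryptamine against control (-0.05 to 0.42; adjusted p = 0.741). FICZ and tryptamine averaged 162.5 ± 10.4 and 162.4 ± 15.8 CPM (SD, n = 3 each), with an interval of -0.23 to 0.24 for their log2 difference. Over the 8 Slc2a1 transcripts, which share reads, FICZ was 1.11 to 1.36 times control and tryptamine 1.12 to 1.28 times control. The larger ratios came from the transcripts of 633, 661 and 1338 nt, on which control replicate 3 held 0.588, 0.584 and 0.639 times the mean CPM of the other controls, against 0.938 on the 2573-nt transcript used here.

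Slc2a3 (gene ID 20527) was measured at 87.4, 87.8 and 82.4 CPM with FICZ, 101.7, 97.7 and 102.4 with tryptamine and 97.9, 103.1 and 73.4 in controls. All 3 FICZ libraries lay below all 3 tryptamine libraries, whereas FICZ and controls overlapped through control replicate 3, the lowest library of the 9. The log2 difference of FICZ against tryptamine was -0.23 ± 0.13 (95% interval -0.51 to 0.05), and its adjusted p in edgeR's quasi-likelihood test was 1. That of FICZ against control was -0.09 ± 0.13 (-0.37 to 0.19; adjusted p = 0.763), and that of tryptamine against control 0.14 ± 0.13 (-0.14 to 0.41; adjusted p = 0.741). Without control replicate 3 the spread was smaller, and FICZ against control became -0.23 ± 0.08 (-0.38 to -0.07) and FICZ against tryptamine -0.22 ± 0.07 (-0.37 to -0.08). Neither of these passed the threshold over all genes (adjusted p = 0.260 and 0.438 in edgeR's quasi-likelihood test). Control replicate 3 held 0.178 to 0.854 times the CPM of the other controls over the 11 Slc2a3 transcripts, the lowest ratio of them on a 919-nt transcript.

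**Figure D3:**
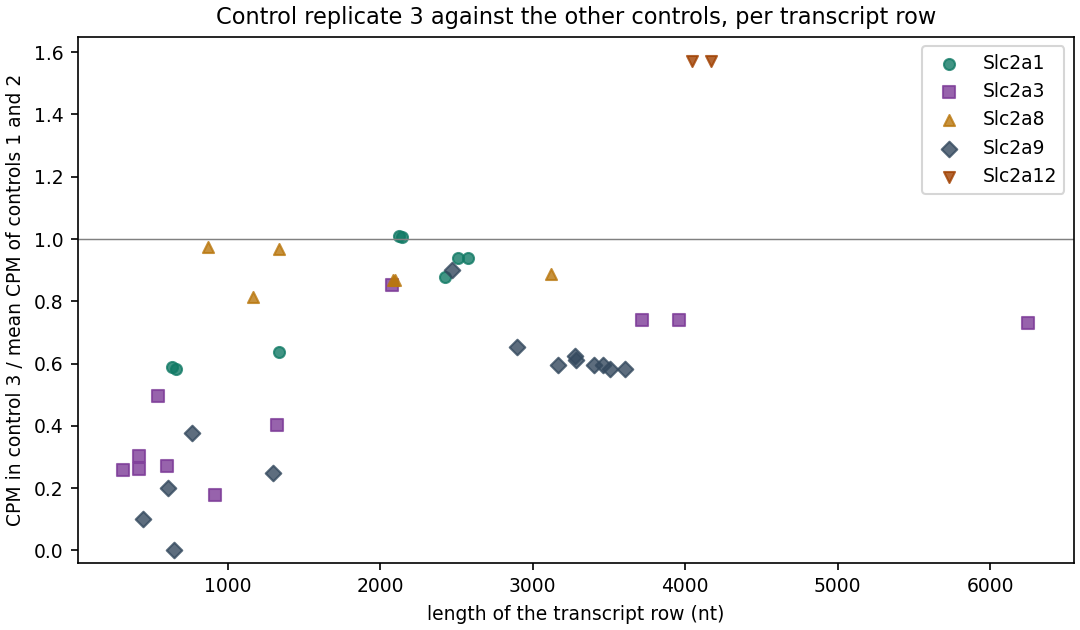
Ratio of CPM in control replicate 3 to the mean of controls 1 and 2 (y axis, linear) against transcript length in nt (x axis), with 1 point per Slc2a transcript of at least 20 reads in controls 1 and 2 and the line at equality. Slc2a9 transcripts lie between 0 and 0.901 and Slc2a3 transcripts between 0.178 and 0.854. The 2 Slc2a12 transcripts, which have the same counts, lie at 1.57. This library thus stood below the other controls for Slc2a3 and Slc2a9 and above them for Slc2a12.

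Slc2a8, Slc2a9 and Slc2a12 were low but measurable. Slc2a8 (gene ID 56017) had 57, 42 and 46 reads with FICZ, 48, 39 and 45 with tryptamine and 37, 39 and 27 in controls. Its tryptamine libraries (3.06 ± 0.185 CPM) all lay above the controls (2.50 ± 0.190 CPM), while FICZ (3.23 ± 0.781 CPM) overlapped both (SD, n = 3 each). The log2 difference of tryptamine against control was 0.29 ± 0.25 (95% interval -0.27 to 0.85; adjusted p = 0.741 in edgeR's quasi-likelihood test), and that of FICZ against control was 0.36 ± 0.25 (-0.19 to 0.92; adjusted p = 0.612).

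Slc2a9 (gene ID 117591), the urate carrier, had 20, 58 and 47 reads with FICZ, 43, 31 and 30 with tryptamine and 47, 60 and 25 in controls. FICZ replicate 1 was the lowest of the 9 libraries and all 3 groups overlapped. The log2 differences were -0.22 ± 0.37 for FICZ (95% interval -1.03 to 0.58; adjusted p = 0.801 in edgeR's quasi-likelihood test) and -0.39 ± 0.37 for tryptamine (-1.21 to 0.43; adjusted p = 0.741), each against control. With control replicate 3 left out the Slc2a9 differences were -0.42 ± 0.34 for FICZ and -0.60 ± 0.35 for tryptamine, and neither passed. Slc2a12 (gene ID 353169), a glucose carrier of the same class as Slc2a6 and Slc2a8, had 28, 45 and 69 reads with FICZ, 26, 19 and 43 with tryptamine and 62, 29 and 57 in controls. Its groups also overlapped, and the libraries within each group lay far apart. Tryptamine against control had the lowest estimate among the 5 members tested besides Slc2a6, at -0.86 ± 0.43 (-1.80 to 0.08; adjusted p = 0.741 in edgeR's quasi-likelihood test), and FICZ against control was -0.23 ± 0.41 (-1.13 to 0.68; adjusted p = 0.821). Without control replicate 3, in which Slc2a12 stood 0.65 above the other controls on the log2 scale, these became -0.62 ± 0.40 for tryptamine and 0.01 ± 0.38 for FICZ, so that the FICZ estimate changed sign. The reads of Slc2a12 lay on 2 of its 7 transcripts with the same counts, and the other 5, the RefSeq transcript included, held 0 to 2 reads.

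FICZ against tryptamine gave log2 differences of 0.07 ± 0.25 for Slc2a8 (95% interval -0.47 to 0.62), 0.17 ± 0.37 for Slc2a9 (-0.65 to 0.99) and 0.63 ± 0.43 for Slc2a12 (-0.31 to 1.57), each with an adjusted p of 1 in edgeR's quasi-likelihood test. These members had few reads, and their intervals are wider than those of Slc2a1 and Slc2a3, so smaller differences could not be detected in these libraries. The parts of read number and of spread between libraries in these widths were not tested.

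**Figure D4:**
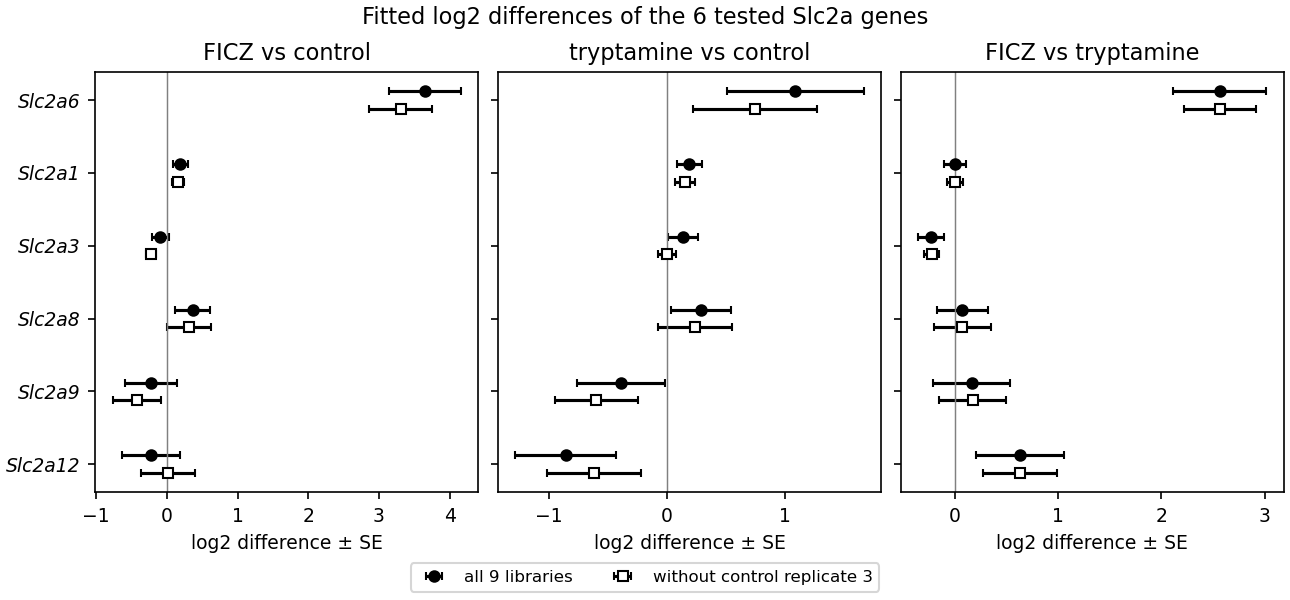
Fitted log2 difference ± SE (x axis) of the 6 tested genes in the 3 comparisons, from all 9 libraries (filled circles) and without control replicate 3 (open squares). Slc2a6 lies at 3.65, 1.09 and 2.57 with all libraries, Slc2a3 moves away from 0 for FICZ against control without control replicate 3 (-0.23), and Slc2a12 moves to 0.01.

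Counted over the family, 6 of the 10 members could be tested. In FICZ against control, 1 of the 6, Slc2a6, passed an adjusted p of 0.05, where 14 of 12374 genes (0.113%) passed; since that difference chose the set, nothing is read from this count. The count was 0 in a fit of the 6 FICZ and control libraries alone, with transcripts summed, and without any 1 of control replicates 1 and 2, the 3 FICZ libraries and tryptamine replicate 3. In tryptamine against control 0 of 6 passed, where 1 gene of all those tested (0.00808%) did, and in FICZ against tryptamine 0 of 6 passed, where 0% of genes did. With an unadjusted p under 0.05 over all 9 libraries, edgeR's test gave 435 higher and 569 lower genes for FICZ against control. It gave 270 and 367 for tryptamine against control and 87 and 127 for FICZ against tryptamine. In none of the 3 comparisons was a member other than Slc2a6 among them. DESeq2 passed 54, 12 and 10 genes in these comparisons. Without control replicate 3 the shares were 0.805%, 0.199% and 0.136% of 12540 genes, and 1, 0 and 1 of the 6 members passed, Slc2a6 each time. In that fit Slc2a3 was among the 608 lower genes with an unadjusted p under 0.05 for FICZ against control (edgeR's test). It was also among the 371 lower genes for FICZ against tryptamine. Since Slc2a6 was chosen for its FICZ reads, nothing is read from its passing, or from its place in non-overlapping groups below, in either FICZ comparison. Non-overlapping groups were seen for Slc2a6 above control with FICZ (8.21% of all genes were so placed), for Slc2a8 above control with tryptamine (5.20%), for Slc2a6 above tryptamine with FICZ (5.46%) and for Slc2a3 below tryptamine with FICZ (5.85%). No member lay wholly below control with FICZ (7.41%) or with tryptamine (4.87%). FICZ and tryptamine were set against the same 3 controls, so their values against control are not independent of each other.

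The other 4 members had too few reads for a test. Slc2a2 (gene ID 20526), the main glucose transporter of hepatocytes, had 0, 1 and 1 reads with FICZ, 0, 2 and 6 with tryptamine and 0, 2 and 0 in controls. Slc2a13 (gene ID 239606), the inositol carrier, had 2 reads, both in FICZ replicate 3. Slc2a10 (gene ID 170441), the gene altered in human arterial tortuosity syndrome, had 0 reads in all 9 libraries, and a count of 0 allows up to 0.0231 CPM over them (3 counts; counting error only). Slc2a4 (gene ID 20528) had 0 reads in every FICZ and tryptamine library and 18, 0 and 2 in the controls. Its reads thus came almost wholly from control replicate 1. In the authors' deposited table Slc2a4 nevertheless has an adjusted p of 0.00728 for FICZ against control and 0.0306 for tryptamine against control on the same transcript, with 6 and 5 of its 11 transcripts under 0.05 in the same comparisons. The remaining family genes Slc2a5 and Slc2a7 had 4 and 2 reads over the 9 libraries.

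Set per transcript length, Slc2a1 was the highest member in every group, at 63.1 ± 4.02 CPM per kb with FICZ, 63.1 ± 6.14 with tryptamine and 55.4 ± 4.68 in controls (SD, n = 3 each). Slc2a3 came next, at 13.7 ± 0.488 with FICZ, 16.1 ± 0.402 with tryptamine and 14.6 ± 2.54 CPM per kb in controls. The Slc2a3 transcript used has 6250 nt, although nearly the same reads were counted on its RefSeq transcript of 3959 nt, so its level per length is a low estimate. In controls Slc2a12 (0.884 ± 0.36 CPM per kb), Slc2a9 (0.873 ± 0.277) and Slc2a8 (0.800 ± 0.0608) followed and did not differ beyond their spread, and Slc2a6 was the lowest tested member at 0.198 ± 0.122. The place of Slc2a12 rests on the transcript used, with 378 reads, while its RefSeq transcript of 3762 nt held 2. Slc2a8 was read from a transcript of 3120 nt with 380 reads, while its RefSeq transcript of 2083 nt held 363. Its level per length is therefore also a low estimate, and the order of Slc2a12, Slc2a9 and Slc2a8 in controls rests on the transcripts used. With FICZ, Slc2a6 was the third highest member at 2.62 ± 0.401 CPM per kb, above Slc2a8 at 1.04 ± 0.25, Slc2a12 at 0.751 ± 0.340 and Slc2a9 at 0.749 ± 0.308. With tryptamine it was the sixth, at 0.434 ± 0.297 CPM per kb, within the spread of Slc2a12 at 0.481 ± 0.164. Of the summed level of the 10 genes per length, Slc2a6 made up 3.18 ± 0.361% with FICZ, 0.535 ± 0.361% with tryptamine and 0.269 ± 0.168% in controls, whereas Slc2a1 made up 76.9 ± 0.954%, 77.0 ± 2.31% and 76.0 ± 2.69% in the same groups. Since the levels of Slc2a3 and Slc2a8 per length are low estimates, the share of Slc2a1 is a high one, and its SD does not cover this. Most of the family's summed transcript level was thus Slc2a1 in all 3 groups, at the transcript lengths used.

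**Figure D5:**
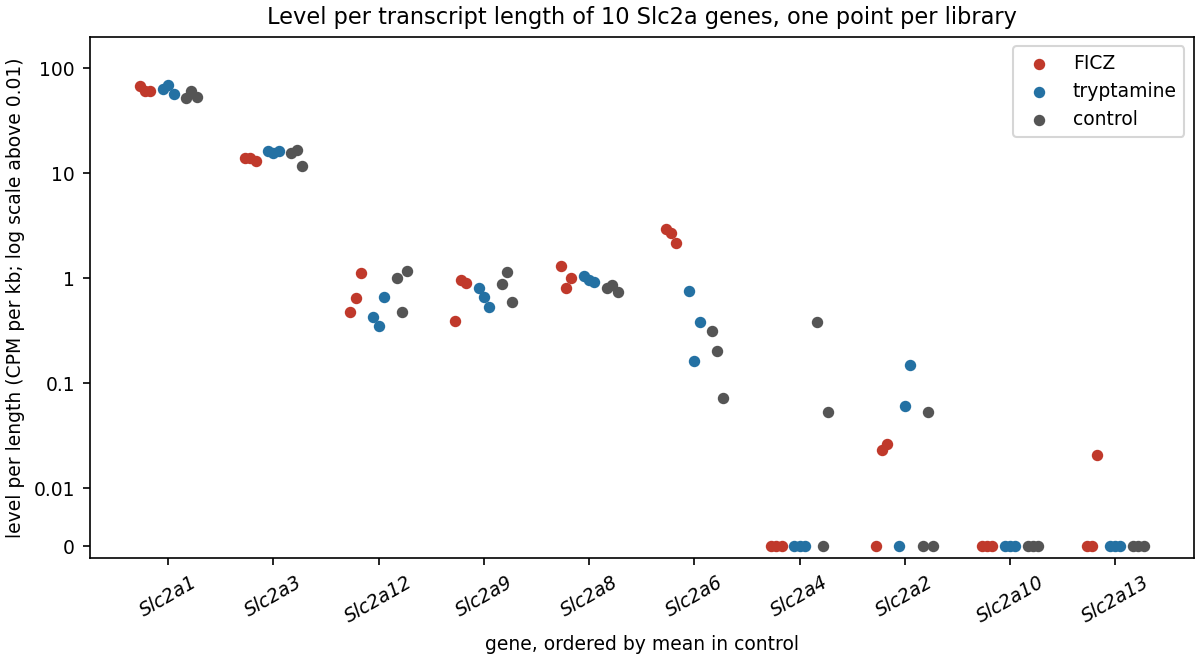
Level per transcript length in CPM per kb (y axis, logarithmic above 0.01 and linear below) of the 10 Slc2a genes, ordered by their mean in controls (x axis), with 1 point per library for FICZ, tryptamine and control. Slc2a1 and Slc2a3 lie highest in every group, and the FICZ points of Slc2a6 (2.62 ± 0.401) lie above those of Slc2a8, Slc2a9 and Slc2a12.

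The genes whose log2 CPM was most like that of Slc2a6 over the 9 libraries, among 12373 others, were Pkd1l3 (Pearson r = 0.939), Tbc1d16 (0.935), Epn3 (0.927), Cbwd1 (0.927), Tapbpl (0.920) and B230312A22Rik (0.920). These r describe 9 libraries that fall into 3 groups and share depth and treatment, so a gene that is higher with FICZ scores high. Without control replicate 3 they were 0.912 to 0.946. Tbc1d16, which encodes a GTPase-activating protein for Rab proteins, averaged 123.7 ± 9.28 CPM with FICZ, 70.2 ± 4.23 with tryptamine and 45.0 ± 9.53 in controls, a log2 difference of 1.46 ± 0.15 for FICZ against control (adjusted p = 0.00506, edgeR's quasi-likelihood test). The other 5 of these genes did not pass, with log2 differences of 0.30 to 0.57 and adjusted p of 0.164 to 0.601 in edgeR's quasi-likelihood test. Among the members, r with Slc2a6 was 0.547 for Slc2a8, 0.405 for Slc2a1, -0.02 for Slc2a12, -0.09 for Slc2a9 and -0.20 for Slc2a3.

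In the surrounding pathways of sugar, lactate, inositol and urate handling, Xdh was the only tested gene that passed, over all 9 libraries and without control replicate 3. Of the 49 genes tested, edgeR's quasi-likelihood test passed 1 for FICZ against control, 0 for tryptamine against control and 0 for FICZ against tryptamine, with 4, 4 and 1 at an unadjusted p under 0.05, and DESeq2 passed 1 in each. Over all 12374 genes edgeR's test passed 0.113%, 0.00808% and 0% in the same order. Genes there with an unadjusted p under 0.05 were 435 higher and 569 lower, 270 and 367, and 87 and 127. Of 10 genes of other sugar transport 5 were tested and 0 passed in any comparison, with a median log2 difference of 0.01 for FICZ against control, where the median of all tested genes was -0.01. Slc45a3 averaged 2.59 ± 1.09 CPM with FICZ, 1.55 ± 0.533 with tryptamine and 1.28 ± 0.811 in controls, and Slc5a10, a sodium-coupled sugar carrier, 2.79 ± 0.224, 2.79 ± 0.682 and 1.79 ± 0.451 in the same groups. All 11 genes of glucose transporter trafficking were tested and 0 passed, with a median of 0.13 over all 9 libraries and -0.01 without control replicate 3. Txnip, whose product promotes the internalisation of Slc2a1 protein, averaged 26.5 ± 0.968 CPM with FICZ, 27.4 ± 1.89 with tryptamine and 34.4 ± 4.62 in controls (log2 difference of FICZ against control -0.38 ± 0.13; adjusted p = 0.601, edgeR's quasi-likelihood test). For Aspscr1, which tethers Slc2a4 vesicles inside fat and muscle cells, that difference was -0.24 ± 0.11.

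Of 25 glycolysis genes 19 were tested and 0 passed, with a median of -0.10 for FICZ against control and -0.02 without control replicate 3. Pfkfb3, which makes the activator of phosphofructokinase, had 37.0 ± 0.673 CPM with FICZ, 34.2 ± 0.853 with tryptamine and 24.4 ± 6.11 in controls, with log2 differences of 0.60 ± 0.16 and 0.48 ± 0.16 for FICZ and tryptamine against control. The FICZ difference did not pass (adjusted p = 0.567, edgeR's quasi-likelihood test). Its relative Pfkfb1 stood at -0.59 ± 0.28 for FICZ against control. Of 11 genes of glucose output and fructose use 5 were tested and 0 passed (median -0.08, or -0.16 without control replicate 3), with Slc37a4, the carrier of glucose 6-phosphate into the endoplasmic reticulum, at -0.43 ± 0.16 and Pck2 at -0.29 ± 0.14. Lactate transport had 3 of 5 genes tested and 0 passed, with Bsg, the chaperone of lactate carriers, at -0.17 ± 0.11 and Slc16a3 at -0.66 ± 0.76. Of 6 inositol genes 4 were tested and 0 passed, with Slc5a3, the sodium-coupled inositol carrier, at 0.29 ± 0.26 and the synthase Isyna1 at -0.18 ± 0.10. Once control replicate 3 was left out, Pck2 stood at -0.16 ± 0.11, Bsg at -0.06 ± 0.06 and Slc5a3 at 0.02 ± 0.15. In that fit Pfkfb3 stood at 0.41 ± 0.11 for FICZ and 0.295 ± 0.107 for tryptamine against control. Slc37a4 stood at -0.54 ± 0.15 for FICZ against control, and none of these passed.

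Among 6 genes of urate handling, the substrate of Slc2a9, 2 were tested. Xdh, whose product xanthine oxidoreductase makes urate, averaged 86.4 ± 7.15 CPM with FICZ, 42.0 ± 2.96 with tryptamine and 19.1 ± 7.14 in controls. It rose with FICZ against control by 2.17 ± 0.23 on the log2 scale (adjusted p = 0.00539, edgeR's quasi-likelihood test). It passed in all 3 comparisons without control replicate 3, where the difference of FICZ against control was 1.895 ± 0.108. The export pump Abcg2 averaged 78.9 ± 5.29 CPM with FICZ, 83.1 ± 10.97 with tryptamine and 89.1 ± 2.17 in controls, a log2 difference of -0.17 ± 0.11 for FICZ against control. Beside them Slc2a9 itself showed no difference past the threshold in any comparison.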

How the data were processed

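Total RNA of 9 libraries was sequenced. The deposited tables give, for 189660 transcripts, whole-number read counts per library (reads, per the file headers) and the authors' log2 fold changes and p-values with adjusted values per comparison. DESeq is named in the submitters' processing notes. No aligner, counting rule, strand setting, genome build or annotation is given in the sources used here; overlapping and antisense genes therefore cannot be told apart. Transcripts of a gene repeat the same reads, so each gene took its transcript with the highest mean count; 26853 transcripts without a gene, 3.56 to 4.23% of counts, were left out. Counts were scaled by TMM, filtered with filterByExpr (12374 genes) and fitted over all 9 libraries with edgeR 4.0.16 (R 4.3.3; quasi-likelihood test, Benjamini-Hochberg, threshold 0.05), after tests on simulated data. DESeq2 1.42.0, other filters and scaling, the gene's summed transcripts, a replicate block and leaving out each library were alternatives. Likeness to Slc2a6 was the Pearson r of log2(CPM + 0.5), over genes with a mean of at least 5 counts. Members and lists were chosen with earlier results of these data known. Genes named were the 10 members, the 6 most like Slc2a6, those that passed and the 2 with the lowest p for FICZ against control in each list, and Cyp1a1 as the readout of treatment. Floors cover counting error only, intervals the spread between these libraries, and no transcript length correction was applied to the fit.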

Additional observations from a re-analysis of the deposited data

How the results depend on the processing

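The results were recomputed under 16 alternatives, 9 of which leave out a library. Of 288 log2 differences of the tested members, 10 changed sign, and of the 240 of the 5 members other than Slc2a6, 0 passed (lowest adjusted p 0.260, edgeR's quasi-likelihood test). The genes that passed for FICZ against control, 14 over all 9 libraries, were 54 with the DESeq2 Wald test, 26 with no filter on low counts, 2 in a fit of the 6 libraries of the pair, 4 with transcripts summed and 4 with the replicate block, and 4 to 101 when a library was left out (101 without control replicate 3). The members that passed there, 1 of 6, were 0 in the pair fit, 0 with transcripts summed, 0 with the replicate block and 0 to 1 when a library was left out (0 without control replicate 1 or 2, any FICZ library or tryptamine replicate 3). The Slc2a6 difference ranged from 3.31 to 4.15 over these alternatives, and since it chose the set, nothing is read from whether Slc2a6 passed here or below. For tryptamine against control, 1 gene became 12 with the DESeq2 Wald test, 2 with no filter, 2 with transcripts summed and 1 to 25 when a library was left out. For FICZ against tryptamine, 0 genes became 10 with the DESeq2 Wald test, 17 in the pair fit and 0 to 17 when a library was left out, and 0 members became 1 (Slc2a6) with the Wald test, 1 in the pair fit and 0 to 1 when a library was left out. The cause was not tested.

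Signs turned only when a library was left out. For FICZ against control the log2 ranges were -0.23 to 0.0044 for Slc2a3, -0.44 to 0.075 for Slc2a9 and -0.64 to 0.015 for Slc2a12, and for tryptamine against control -0.0015 to 0.23 for Slc2a3. For FICZ against tryptamine they were -0.069 to 0.071 for Slc2a1, -0.12 to 0.23 for Slc2a8 and -0.056 to 0.46 for Slc2a9. Slc2a3 was at 0.0044 without control replicate 2 and -0.0015 without control replicate 3.

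Replicate numbers did not pair the libraries: the deviations of same-numbered libraries correlated at -0.06 to 0.12. With the number as a block, 4 genes passed for FICZ against control, 1 for tryptamine against control and 0 for FICZ against tryptamine. The 3 libraries a group and the 20 control reads of Slc2a6 limit its fold.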
